A study of Homo sapiens with 18 samples.

Results

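The genes described here are 10 core components and outputs of the circadian clock (CLOCK, ARNTL, PER1, PER2, PER3, CRY1, CRY2, NR1D1, NR1D2 and DBP), taken by symbol from a table of 32548 genes. They are covered by 84 of its 145326 transcripts. RNA was measured in 18 samples of cells grown as spheroidal aggregates in Matrigel inside electrotaxis channels, which are narrow chambers that carry a direct current along the cells. The aggregates were made of U87mg, an established glioblastoma line, or DAOY, an established line of desmoplastic cerebellar medulloblastoma, and each sample pooled 3 channels. After 24 h of acclimation each line was sampled without a field (0 h), after 2 h and after 8 h at 250 V/m, with 3 replicates in each of the 6 groups. No genetic change or drug was used in these samples, and each tumour type stands as 1 cell line. Unexposed aggregates held for 2 or 8 h were not analysed here and the labels give no hour of day, so the field, the time in the channel and the hour of collection cannot be told apart in any comparison of times.

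The circadian clock is a feedback loop of transcription that most cells carry, with a period close to a day. CLOCK and ARNTL (also called BMAL1) form an activator that binds E-box sequences and drives the PER and CRY genes, whose proteins accumulate and repress that activator. The same activator drives the nuclear receptors NR1D1 and NR1D2 (REV-ERBα and REV-ERBβ), which repress ARNTL and, in many tissues, CRY1, and it drives DBP, a transcription factor of the output arm that acts at D-box sequences.

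Promoter sequence is shown for 5 of the genes because ARNTL and CRY1 are the ones that changed with time, NR1D1 and NR1D2 encode the receptors that act on them, and PER1 represents the repressors driven through E-boxes. Each line gives the 250 bases before a RefSeq start on GRCh38.p14, 5′ to 3′ along the gene. The letters searched, on both strands, were CACGTG (the E-box), CACGTT (a non-canonical E-box), AGGTCA (the core site of nuclear receptors), TTATGTAA and TTACGTAA (D-box forms) and TGACGTCA (the cAMP response element), and capitals mark a match. None of these motifs overlapped another in the windows shown.
ARNTL, chr11:13277540-13277789, plus strand: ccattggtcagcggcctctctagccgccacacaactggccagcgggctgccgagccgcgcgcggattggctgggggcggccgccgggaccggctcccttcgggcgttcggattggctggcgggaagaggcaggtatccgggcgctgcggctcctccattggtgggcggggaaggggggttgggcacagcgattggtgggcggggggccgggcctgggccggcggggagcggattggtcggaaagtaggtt
CRY1, chr12:107093550-107093799, minus strand: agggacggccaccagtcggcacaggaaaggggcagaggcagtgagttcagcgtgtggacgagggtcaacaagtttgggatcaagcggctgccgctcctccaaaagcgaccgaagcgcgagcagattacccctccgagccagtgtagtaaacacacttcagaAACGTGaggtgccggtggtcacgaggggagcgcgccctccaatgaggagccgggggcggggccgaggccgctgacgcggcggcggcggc
NR1D1, chr17:40100590-40100839, minus strand: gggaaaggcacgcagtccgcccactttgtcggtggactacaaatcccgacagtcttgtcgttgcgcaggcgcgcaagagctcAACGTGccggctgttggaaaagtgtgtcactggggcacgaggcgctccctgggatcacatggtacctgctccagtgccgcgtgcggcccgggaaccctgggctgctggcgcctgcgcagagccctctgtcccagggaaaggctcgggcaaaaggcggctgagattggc
NR1D2, chr3:23945871-23946120, plus strand: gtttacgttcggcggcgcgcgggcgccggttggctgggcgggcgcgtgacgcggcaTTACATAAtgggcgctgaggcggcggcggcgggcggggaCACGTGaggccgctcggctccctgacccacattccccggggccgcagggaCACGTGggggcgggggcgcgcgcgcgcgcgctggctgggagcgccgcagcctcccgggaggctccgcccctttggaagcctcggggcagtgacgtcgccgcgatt
PER1, chr17:8152405-8152654, minus strand: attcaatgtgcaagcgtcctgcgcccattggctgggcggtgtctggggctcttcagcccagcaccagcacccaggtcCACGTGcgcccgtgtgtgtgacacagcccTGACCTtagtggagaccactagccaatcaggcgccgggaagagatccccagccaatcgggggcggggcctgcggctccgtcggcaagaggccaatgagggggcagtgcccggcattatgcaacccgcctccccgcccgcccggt

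All 10 genes matched RefSeq, with 15 windows because some have more than 1 start. CACGTG lay in 2 of the 15 windows and in 6.34% of all 35116 windows of that length. Those were the window of PER1 and the NR1D2 window shown, which held 2 copies, while the other NR1D2 window had no match to any motif. CACGTT lay in 5 of the 15, from CLOCK, PER2, CRY1, CRY2 and NR1D1, and in 4.55% of all windows. AGGTCA was found in 3 of the 15, from PER1 and CRY2, against 12.1% of all windows. TTATGTAA was found in 2 of the 15, from PER3 and NR1D2, against 0.834%. TTACGTAA and TGACGTCA had no match among the 15 windows, and are held by 0.105% and 1.65% of all windows. These matches describe letters and are not evidence of binding.

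Library totals ran from 8341976 to 15610886 estimated counts, and mitochondrial genes took 2.83 to 8.44% of them. Replicates were separate samples by their labels and differed by more than counting noise in every pair. Markers of glia summed to 6.34 to 12.9 TPM (a level per transcript length, scaled to the same total in each library) over the 18 libraries. At 0 h GFAP had 1.91 TPM in U87mg and 0.246 TPM in DAOY, and NES (7.77 and 0.551 TPM) and S100B were also higher in U87mg. SOX2 (0.0185 and 4.24 TPM), OLIG1 (0 and 2.64 TPM), ALDH1L1 and AQP4 were higher in DAOY. OLIG2 had 0.86 and 0.96 TPM. The granule neuron marker NEUROD1 was close to 0 in both lines (0.0635 TPM in U87mg and 0.0193 TPM in DAOY), while VIM, a mesenchymal intermediate filament gene, had 4744 and 2405 TPM. Granule neuron markers as a list summed to 28.0 to 66.6 TPM, mostly from PAX6, ZIC1 and ZIC2, and BARHL1 was at 0 in unexposed aggregates of both lines. Markers of blood, vessel and epithelium summed to 251 to 606 TPM in U87mg and 20.4 to 53.2 TPM in DAOY, led by CD68 in both, while the leukocyte marker PTPRC stood at 0.0539 and 0.00987 TPM in unexposed U87mg and DAOY. By the study's methods the 3 libraries of a group are biological replicates kept for their RNA quality out of those prepared, each pooled from 3 channels run side by side, so p-values measure the spread between such replicates of 1 cell line.

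On the per-length TPM scale, NR1D2 was the highest of the clock genes in unexposed aggregates of both lines, at 57.3 ± 6.98 in U87mg and 42.9 ± 1.77 in DAOY (SD, n = 3). In unexposed U87mg the order below it was CLOCK (34.6 ± 5.45), NR1D1 (29.8 ± 6.19), ARNTL (24.5 ± 6.18), CRY1 (13.8 ± 1.93), PER3 (9.25 ± 1.29), PER1 (6.59 ± 1.35), PER2 (3.602 ± 1.03), CRY2 (2.56 ± 0.538) and DBP (0.745 ± 0.424). Neighbours whose replicates overlapped in that order were CLOCK with NR1D1, NR1D1 with ARNTL, and PER2 with CRY2. In unexposed DAOY the order was NR1D2, CRY1 (28.9 ± 3.03), ARNTL (28.1 ± 5.31), NR1D1 (19.9 ± 8.58), CLOCK (15.6 ± 5.40), PER1 (5.24 ± 1.89), CRY2 (4.36 ± 1.90), PER3 (2.95 ± 0.459), PER2 (2.36 ± 0.431) and DBP (2.21 ± 1.66). Only the steps from NR1D2 to CRY1 and from CLOCK to PER1 had no overlap between replicates in that line. By 8 h the top of the DAOY order was CRY1 (62 ± 10.5) and ARNTL (50.04 ± 3.42), whose replicates overlapped, followed without overlap by NR1D2 (33.4 ± 3.14).

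**Figure D1:**
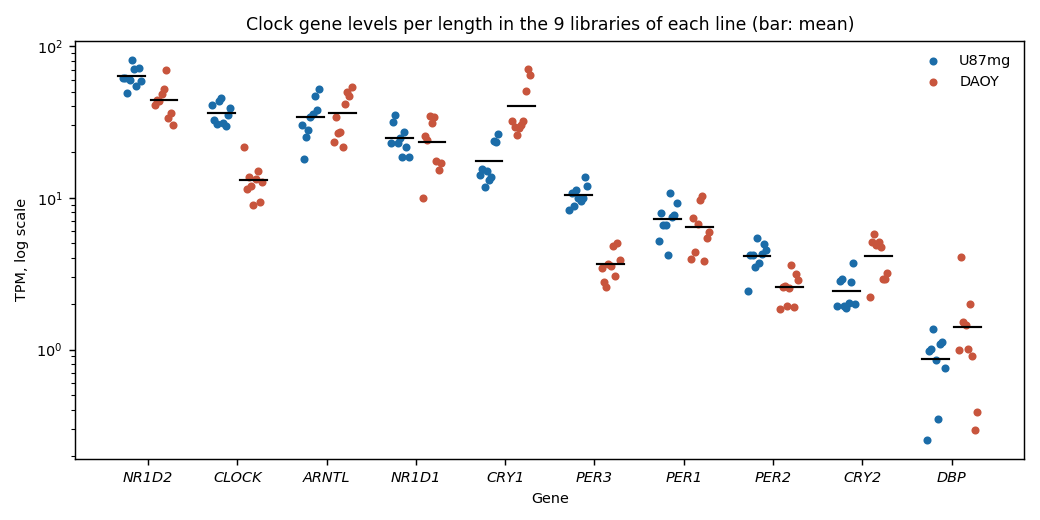
TPM of each clock gene (log axis) in the 9 libraries of U87mg and the 9 of DAOY, ordered by the U87mg mean; points are libraries and bars are means. NR1D2 had the highest mean in both lines (63.1 TPM in U87mg and 44.3 TPM in DAOY) and DBP the lowest (0.864 and 1.41 TPM).

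The TPM sums depend on how reads were shared among isoforms. NR1D1 has 1 transcript in the table and PER2 nearly so, since ENST00000254657 held 98.3% of its TPM in U87mg and 96.4% in DAOY. For ARNTL, coding transcripts held 54.6% of the TPM in U87mg and 61.1% in DAOY, and short retained-intron transcripts held 36.7% and 29.1%. Its most abundant entry in U87mg was the retained-intron transcript ENST00000529390 (chr11:13372209-13376771, 4 exons; 11.1 ± 5.02 TPM, SD over 9 libraries), and in DAOY the coding transcript ENST00000403290 (chr11:13277831-13387266, 20 exons; 8.64 ± 4.82 TPM). The leading transcript was coding and the same in both lines for CLOCK (ENST00000309964; 63.0% of the gene in U87mg and 51.7% in DAOY), PER1 (ENST00000317276; 43.1% and 65.8%), PER3 (ENST00000361923; 34.2% and 29.4%), CRY1 (ENST00000008527; 67.5% and 62.9%), CRY2 (ENST00000443527; 42.7% and 48.8%) and NR1D2 (ENST00000312521; 95.0% and 85.3%). For PER3 the share of the leading transcript ran from 0.0111 to 67.7% between U87mg libraries, so its isoforms were not told apart. DBP was led by ENST00000599385 in U87mg and by ENST00000593500 in DAOY, both from few counts.

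**Figure D2:**
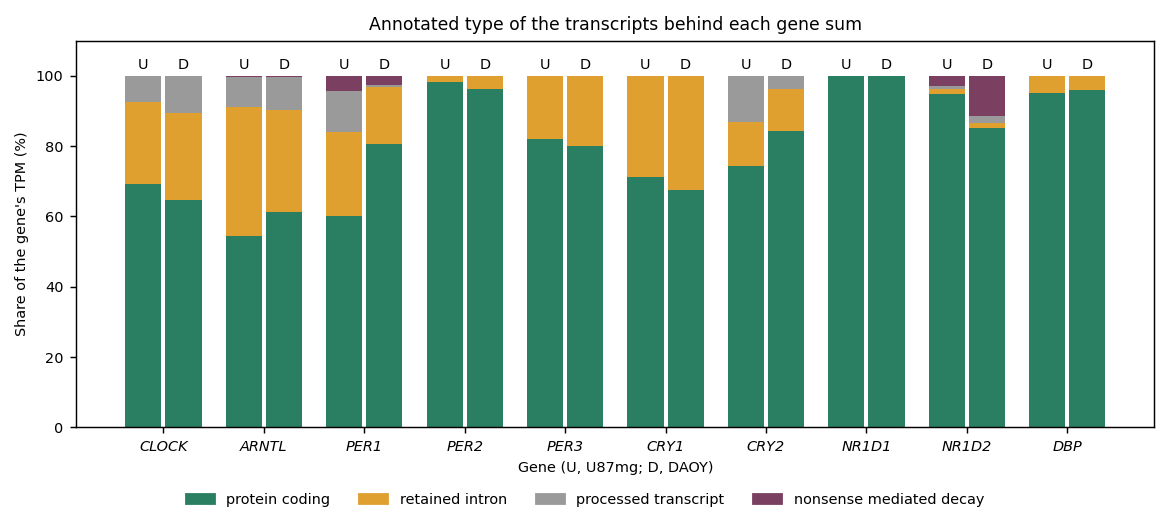
Share of each clock gene's TPM (percent, mean over 9 libraries per line) by annotated transcript type, with U for U87mg and D for DAOY. NR1D1 is a single coding transcript, whereas retained-intron transcripts held 28.6% of CRY1 in U87mg and 32.4% in DAOY.

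The lines differed in most clock genes without any field. Values here are CPM (counts scaled to library size with trimmed-mean factors), and the test was the quasi-likelihood test of edgeR, its p-values adjusted by Benjamini-Hochberg over the 16483 genes tested. By an adjusted p below 0.05, 7 of the 10 genes differed, against 60.7% of all genes, so the share of clock genes was near the background. Of the 7, 2 were higher and 5 lower in DAOY, where 32.8% and 27.9% of all genes were, and 6 of the 10 had no overlap between the lines, against 59.3%. With a log2 difference of at least 1 as well, the count was 3 of 10, against 41.2% of all genes. CLOCK and PER3 were the genes most below U87mg in DAOY, and CRY1 was the one most above.

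CLOCK, the histone acetyltransferase partner in the activator, had 177, 143 and 145 CPM in the unexposed U87mg replicates and 71.5, 43.5 and 49.5 CPM in those of DAOY. Every U87mg library lay above every DAOY library, and the log2 difference was -1.50 (SE 0.16; edgeR adjusted p = 4.4e-07). Its partner ARNTL had 34.0, 21.0 and 31.4 CPM in U87mg and 31.0, 30.9 and 29.6 CPM in DAOY, ranges that overlapped (log2 difference 0.08, SE 0.19; edgeR adjusted p = 0.733). PER3 had 26.9, 35.5 and 28.0 CPM in U87mg and 9.60, 9.64 and 9.34 CPM in DAOY. The U87mg libraries were all higher for PER3, by a log2 difference of -1.66 for DAOY against U87mg (SE 0.20; edgeR adjusted p = 1.6e-06). CRY1 went the other way, with 26.8, 23.4 and 20.9 CPM in U87mg and 65.1, 46.0 and 41.0 CPM in DAOY. All DAOY libraries exceeded all U87mg libraries for CRY1 (log2 difference 1.10, SE 0.19; edgeR adjusted p = 7.0e-05).

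Smaller differences passed for 4 more genes. PER2 (log2 difference -0.67, SE 0.25; edgeR adjusted p = 0.0255), NR1D1 (-0.69, SE 0.22; 0.0116) and NR1D2 (-0.48, SE 0.17; 0.0180) were lower in DAOY, and CRY2 was higher (0.66, SE 0.28; 0.0482). Only CRY2 had overlapping lines among these 4, from 4.59 to 6.999 CPM in U87mg and from 5.31 to 11.97 CPM in DAOY. Single libraries decided these 4 calls. PER2 was no longer called without U87mg replicate 1 or 2 or DAOY replicate 0 (edgeR adjusted p = 0.0821, 0.0858 and 0.0649), and NR1D1 without U87mg replicate 2 or DAOY replicate 0 (0.0527 and 0.0503). NR1D2 was lost without U87mg replicate 0 (0.0711), and CRY2 without any library but DAOY replicate 0 (up to 0.206). PER1 had 11.2 to 14.0 CPM in U87mg and 5.54 to 18.1 CPM in DAOY, and no difference was detected (log2 difference -0.11, SE 0.31; edgeR adjusted p = 0.781). DBP was counted at 2.07 to 11.3 reads per library in U87mg and 4.29 to 25.3 in DAOY over all times, and its difference at 0 h (log2 0.78, SE 0.54; edgeR adjusted p = 0.226) was not detectable at this depth.

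**Figure D3:**
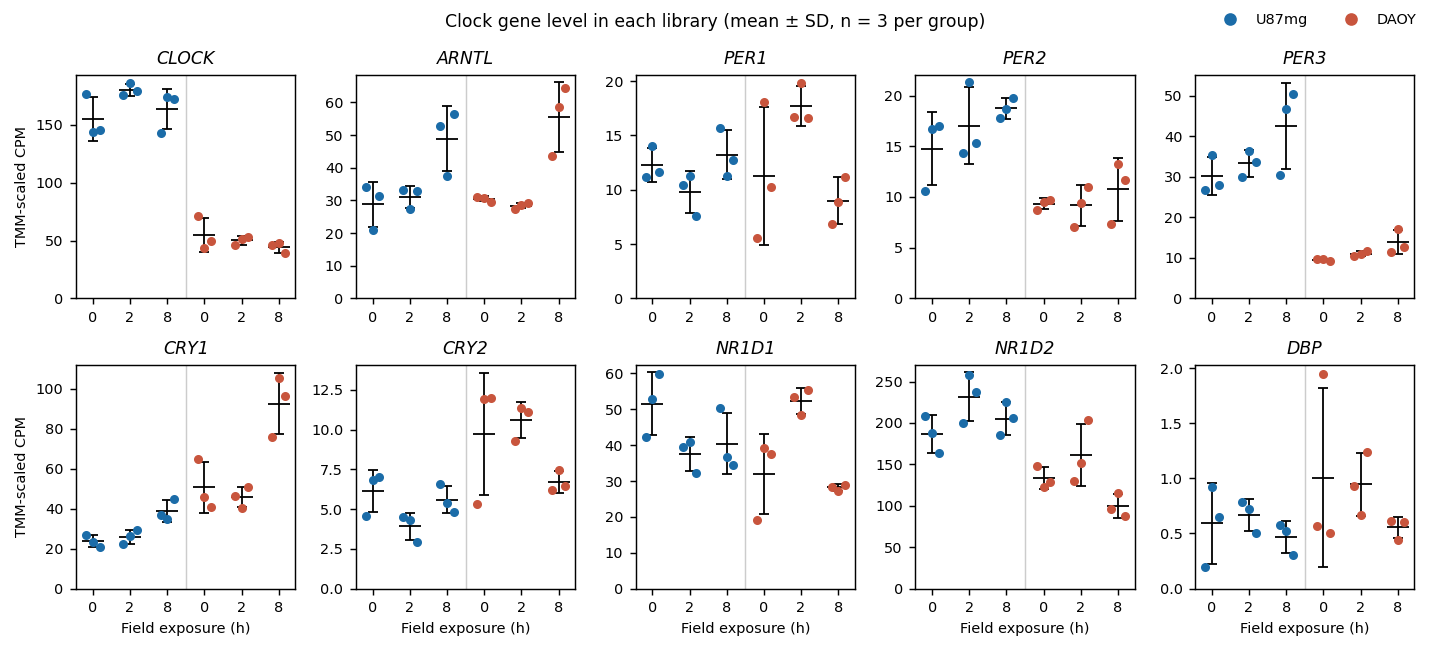
CPM of the 10 clock genes in each library, by hours of exposure, for U87mg (blue) and DAOY (red); points are libraries, and black bars give the mean ± SD (n = 3). The 8 h libraries of DAOY lie above its 0 and 2 h libraries for ARNTL and CRY1, and CLOCK and PER3 lie higher in U87mg than in DAOY at every time.

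The exposure times were compared within each line, with 9 of the 10 genes tested, since DBP did not pass the filter on low counts. At 2 h no clock gene had changed in either line by edgeR at an adjusted p below 0.05, against 0.0% of the 14107 genes tested in U87mg and 0.0% of the 15397 tested in DAOY. Without U87mg 0 h replicate 0, 1215 of all genes passed in U87mg at 2 h, and the count of clock genes was still 0. DESeq2 and limma also called 0 clock genes at 2 h. At an unadjusted p below 0.05 edgeR had 3 clock genes in U87mg (CRY2, NR1D1 and NR1D2), where 8.78% of all genes met it, and 1 in DAOY (NR1D1), where 2.75% did.

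By 8 h, ARNTL and CRY1 rose in DAOY and CRY1 rose in U87mg, and no clock gene fell at an adjusted p below 0.05 by edgeR. In DAOY at 8 h against 0 h this made 2 of 9 genes, against 5.86% of all genes (2.35% higher and 3.51% lower), and in U87mg 1 of 9, against 1.72% (0.95% higher and 0.773% lower). The DAOY count was also 2 of 9 at 8 h against 2 h, where 1.58% of all genes were called (0.669% higher and 0.916% lower), and the U87mg count was 0 of 9, where 0.822% were (0.454% lower). In that last comparison DESeq2 called CRY1 (adjusted p = 0.0382), edgeR without a filter on low counts called ARNTL (0.0191), and 2 clock genes had an unadjusted p below 0.05 by edgeR, as had 19.5% of all genes. Only CRY1 in DAOY at 8 h against 2 h also reached a log2 change of 1, where 1.04% of all genes met both criteria. The share of all genes that met both was 3.13% at 8 h against 0 h in DAOY, and 0.638% and 0.397% at 8 h against 0 h and 2 h in U87mg. RNA was taken from whole aggregates, so a change in how many cells express a gene and a change in RNA per cell cannot be told apart.

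ARNTL, the partner of CLOCK and the non-redundant subunit of the activator, had 31.0, 30.9 and 29.6 CPM in the DAOY replicates at 0 h, 27.5, 28.5 and 29.2 CPM at 2 h, and 43.7, 58.7 and 64.4 CPM at 8 h. The 3 libraries at 8 h were above all 6 others of that line. The gene rose by 0.89 on the log2 scale at 8 h against 0 h (SE 0.17; edgeR adjusted p = 0.0182) and by 0.96 against 2 h (SE 0.17; 0.0292), while 5.19% of all genes tested had a log2 change at least as high at 8 h against 0 h. The call against 0 h was lost without DAOY 0 h replicate 2, 8 h replicate 1 or 8 h replicate 2 (edgeR adjusted p = 0.0556, 0.0797 and 0.0787), and the call against 2 h held only without 8 h replicate 0 (0.0427), with log2 changes of 0.78 to 1.11 across all these.

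In U87mg, ARNTL had 34.0, 21.0 and 31.4 CPM at 0 h, 33.2, 27.2 and 32.7 CPM at 2 h, and 52.6, 37.6 and 56.3 CPM at 8 h. Each 8 h library was above each earlier one, but replicate 1 was low at all 3 times and the change missed the threshold (log2 change 0.79, SE 0.20; edgeR adjusted p = 0.0712). Its adjusted p was 0.0121 by DESeq2, and 0.0328 by edgeR without U87mg 0 h replicate 0. The 8 h changes of ARNTL in the lines differed by 0.11 on the log2 scale (SE 0.27; edgeR adjusted p = 0.979), a difference that was not detectable.

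CRY1, a flavoprotein-like repressor of the activator, had 65.1, 46.0 and 41.0 CPM in DAOY at 0 h, 46.4, 40.4 and 50.7 CPM at 2 h, and 76.1, 106 and 96.3 CPM at 8 h. All 8 h libraries exceeded all earlier ones, with 0 h replicate 0 the nearest. It rose by 0.90 on the log2 scale against 0 h (SE 0.20; edgeR adjusted p = 0.0281) and by 1.01 against 2 h (SE 0.20; 0.0358). The first call was lost without DAOY 0 h replicate 1 or 2, or 8 h replicate 1 or 2 (edgeR adjusted p = 0.0625, 0.0868, 0.111 and 0.0998). The second was lost without any of its 6 libraries (edgeR adjusted p = 0.0556 to 0.152), with the log2 change between 0.91 and 1.13.

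The U87mg values of CRY1 were 26.8, 23.4 and 20.9 CPM at 0 h, 22.1, 26.5 and 29.2 CPM at 2 h, and 36.8, 35.0 and 45.1 CPM at 8 h. The 8 h libraries again lay above the 6 others, and the rise against 0 h was 0.75 on the log2 scale (SE 0.16; edgeR adjusted p = 0.0405), from a lower starting level than in DAOY. It held only without U87mg 0 h replicate 0 (edgeR adjusted p = 0.0205) and was lost without U87mg 0 h replicate 1 or 2 (0.106 and 0.232) or 8 h replicate 0, 1 or 2 (0.0546, 0.0646 and 0.230). Against 2 h the log2 change was 0.61 (SE 0.16; edgeR adjusted p = 0.0946). The lines did not differ detectably in the 8 h change of CRY1 (log2 difference 0.15, SE 0.26; edgeR adjusted p = 0.948).

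**Figure D4:**
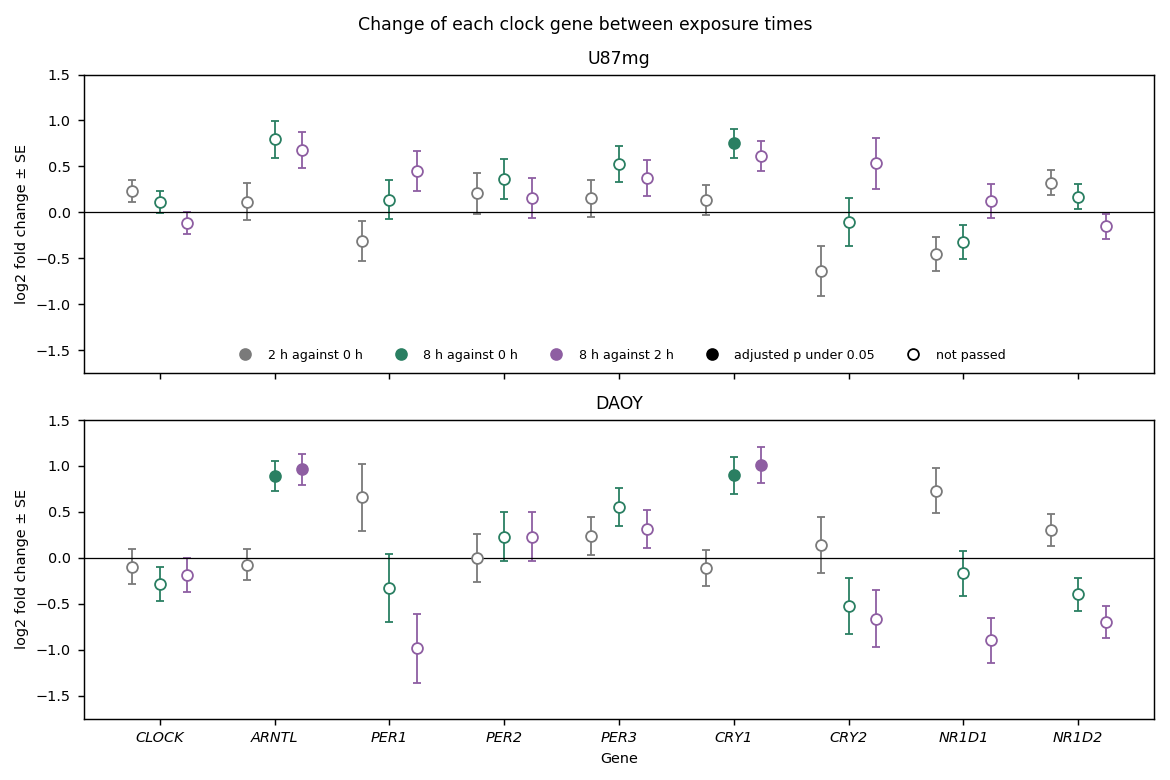
Log2 fold change ± SE of 9 clock genes between exposure times in U87mg (upper panel) and DAOY (lower panel), from edgeR; filled symbols have an adjusted p below 0.05. The filled symbols are CRY1 in U87mg at 8 h against 0 h (0.75) and ARNTL and CRY1 in DAOY at 8 h against 0 h (0.89 and 0.90) and against 2 h (0.96 and 1.01).

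The counts of CRY1 came mostly from coding transcripts at every time. These held 85.0% of its estimated counts at 0 h and 78.1% at 8 h in DAOY, and 86.1% and 83.7% in U87mg. Retained-intron transcripts went from a mean of 78.35 to 203.2 estimated counts in DAOY between 0 and 8 h, beside 445.6 to 722 for coding ones. In U87mg these means went from 39.02 to 73.86 and from 251 to 379.1. The CRY1 call in U87mg at 8 h against 0 h was lost when only coding transcripts were summed. The main coding transcript ENST00000008527 (chr12:106991364-107093829, minus strand, 13 exons) went from 21.2 ± 2.58 to 35.0 ± 3.09 TPM in DAOY and from 9.58 ± 0.326 to 15.1 ± 1.48 TPM in U87mg between 0 and 8 h (SD, n = 3). The retained-intron transcript ENST00000546722 (chr12:106999789-107001851) went from 3.24 ± 1.48 to 17.7 ± 4.56 TPM in DAOY and from 1.56 ± 0.682 to 6.92 ± 1.08 TPM in U87mg, with no overlap between the times in either line. Tested as transcripts, 25 of the 84 passed the filter in each line and none had an adjusted p below 0.05 in any of the 6 comparisons of times by edgeR, which also called 0 of 40613 transcripts in U87mg and 0 of 41336 in DAOY. The count at an unadjusted p below 0.05 was 5 of 25 in DAOY and 3 of 25 in U87mg at 8 h against 0 h, beside 10.3% and 6.3% of all transcripts. DESeq2 called 2 in each line for that comparison, beside 4.59% of all transcripts in DAOY and 1.59% in U87mg, and these included ENST00000008527 in both (log2 change 0.72 in DAOY, adjusted p = 0.0336, and 0.69 in U87mg, adjusted p = 0.00112).

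NR1D1, a haem-binding nuclear receptor that represses transcription, had 19.2, 39.2 and 37.5 CPM in DAOY at 0 h, 53.3, 48.3 and 55.4 CPM at 2 h, and 28.4, 27.3 and 28.9 CPM at 8 h. The 2 h libraries were above all the others, and 0 h replicate 0 was the lowest of the 9. Against 0 h the 2 h log2 change was 0.73 (SE 0.24; edgeR adjusted p = 0.999), and the 8 h level was -0.90 against 2 h (SE 0.24; 0.0834). DESeq2 gave 0.0207 for the latter, and edgeR 0.0227 with all 18 libraries in 1 fit.

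U87mg showed the opposite order for NR1D1 at 2 h, with 42.3, 52.8 and 59.7 CPM at 0 h, 39.6, 41.0 and 32.2 CPM at 2 h, and 50.3, 36.6 and 34.4 CPM at 8 h. Its 2 h libraries were all below its 0 h libraries (log2 change -0.45, SE 0.18; edgeR adjusted p = 0.495). The difference between the lines in the 2 h change was 1.16 on the log2 scale (SE 0.31), which had an unadjusted p of 0.00151 and did not pass over all genes (edgeR adjusted p = 0.619). None of the 10 genes passed this test at 2 h or 8 h by edgeR, against 0.0% and 0.0121% of the 16483 genes, and 2 and 1 of them had an unadjusted p below 0.05, as had 6.41% and 8.88% of all genes. By DESeq2 the count was also 0 at both times, and without a filter on low counts edgeR called NR1D1 at 2 h (adjusted p = 0.0474).

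NR1D2, the close relative of NR1D1, had 148, 123 and 129 CPM in DAOY at 0 h, 130.2, 152 and 203 CPM at 2 h, and 96.2, 116 and 87.2 CPM at 8 h. The 8 h libraries lay below all earlier ones, with log2 changes of -0.40 against 0 h (SE 0.18; edgeR adjusted p = 0.217) and -0.70 against 2 h (SE 0.18; 0.0730). DESeq2 gave the second an adjusted p of 0.0252. In U87mg the means were 187 ± 22.6, 232 ± 29.8 and 205 ± 20.2 CPM at 0, 2 and 8 h (SD, n = 3), with overlap between each pair of times.

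Among the period genes, PER1, an early-responding repressor, had 5.54, 18.1 and 10.2 CPM in DAOY at 0 h, 16.7, 19.8 and 16.6 CPM at 2 h, and 6.88, 8.91 and 11.2 CPM at 8 h. Its 8 h libraries were all below its 2 h libraries (log2 change -0.99, SE 0.37; edgeR adjusted p = 0.191), while the 0 h libraries spread over both. In U87mg PER1 stayed between 7.61 and 15.7 CPM, and the 3 times overlapped. PER2 ran from 7.05 to 13.3 CPM in DAOY and from 10.6 to 21.4 CPM in U87mg, with 8 h log2 changes of 0.23 (SE 0.27; edgeR adjusted p = 0.676) and 0.36 (SE 0.22; 0.473). PER3 had 9.60, 9.64 and 9.34 CPM at 0 h and 11.6, 17.1 and 12.7 CPM at 8 h in DAOY, without overlap, and 26.9, 35.5 and 28.0 CPM against 30.5, 46.6 and 50.3 CPM in U87mg, with overlap. The 8 h log2 changes of PER3 were 0.56 in DAOY (SE 0.21; edgeR adjusted p = 0.146) and 0.53 in U87mg (SE 0.20; 0.212).

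CRY2, the paralog of CRY1, had 5.31, 11.9 and 11.97 CPM in DAOY at 0 h, 9.28, 11.4 and 11.1 CPM at 2 h, and 6.17, 7.48 and 6.46 CPM at 8 h. The 8 h libraries fell within the spread at 0 h and below that at 2 h (log2 change -0.66 against 2 h, SE 0.31; edgeR adjusted p = 0.281). In U87mg CRY2 had 23 to 108 estimated counts per library, and the 2 h libraries (4.50, 4.31 and 2.92 CPM) lay below those at 0 h (4.59, 6.81 and 6.999 CPM; log2 change -0.64, SE 0.27; edgeR adjusted p = 0.495). CLOCK ranged from 38.8 to 71.5 CPM in DAOY and from 143 to 186 CPM in U87mg, with 8 h log2 changes of -0.28 (SE 0.19; edgeR adjusted p = 0.411) and 0.11 (SE 0.12; 0.748). DBP had 0.565, 1.94 and 0.507 CPM at 0 h and 0.617, 0.440 and 0.605 CPM at 8 h in DAOY, and 0.1997, 0.924 and 0.648 CPM against 0.575, 0.523 and 0.303 CPM in U87mg, from 2.07 to 25.3 counts, and no change could be read at this depth.

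Groups that did not overlap were counted as well. At 2 h against 0 h the count was 3 of 9 in DAOY (NR1D1 and PER3 higher, ARNTL lower), against 6.94% of all genes. In U87mg it was 2 of 9 at 2 h against 0 h (CRY2 and NR1D1 lower), against 12.1% of all genes. At 8 h against 2 h in U87mg it was 4 of 9 (ARNTL, CRY1 and CRY2 higher, CLOCK lower), against 30.5%. At 8 h against 2 h in DAOY, 6 of the 9 genes had no overlap between the times, 2 higher (ARNTL and CRY1) and 4 lower (PER1, CRY2, NR1D1 and NR1D2), against 29.6% of all genes (13.7% higher and 15.9% lower). At 8 h against 0 h the count was 4 of 9 in DAOY (ARNTL, CRY1 and PER3 higher, NR1D2 lower; 25.7% of all genes, 11.3% higher and 14.3% lower) and 3 of 9 in U87mg (ARNTL, CRY1 and PER2, all higher; 17.4% of all genes, 7.66% higher and 9.78% lower). The median log2 change of the 9 genes at 8 h against 0 h was 0.17 in U87mg and -0.17 in DAOY, beside -0.00 and -0.01 over all genes tested. The 8 h changes of 6 of the 9 genes had the same sign in both lines, against 67.5% of the 13139 genes tested in both. DAOY 0 h replicate 0, the lowest library of its group for PER1, CRY2 and NR1D1 and the highest for CLOCK, NR1D2 and CRY1, was the one library whose omission added a call in DAOY at 8 h against 0 h, with CRY2 at a log2 change of -0.82 (SE 0.20; edgeR adjusted p = 0.0497). Without it the count of clock genes called at 2 h was still 0.

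Ratios of 2 genes within a library do not depend on the scaling between libraries. The ratio of CRY1 to NR1D2 estimated counts was 0.438, 0.373 and 0.318 in DAOY at 0 h, 0.356, 0.266 and 0.249 at 2 h, and 0.790, 0.913 and 1.11 at 8 h. In U87mg it was 0.128, 0.125 and 0.128 at 0 h, 0.111, 0.103 and 0.123 at 2 h, and 0.199, 0.155 and 0.219 at 8 h. The 8 h libraries of each line lay above all of its others for this ratio. In DAOY that follows from the CPM values above, where each 8 h library was higher for CRY1 and lower for NR1D2 than all others. The ratio is therefore no separate support there, and the share of other gene pairs separated in this way was not counted. The ratio of ARNTL to NR1D1 was 1.62, 0.786 and 0.790 at 0 h, 0.514, 0.591 and 0.527 at 2 h, and 1.54, 2.15 and 2.22 at 8 h in DAOY, where 0 h replicate 0 fell within the 8 h range. In U87mg this ratio was 0.8048, 0.3982 and 0.5258 at 0 h, 0.8375, 0.6645 and 1.015 at 2 h, and 1.047, 1.025 and 1.634 at 8 h. There the lowest 8 h library lay just above the highest at 2 h. The CRY1 to CRY2 ratio had means of 6.52 ± 4.98, 4.37 ± 0.740 and 13.8 ± 1.33 at 0, 2 and 8 h in DAOY (SD, n = 3), where 0 h replicate 0 (12.3) lay just below the lowest 8 h library. In U87mg the means were 4.09 ± 1.52, 7.02 ± 2.65 and 7.13 ± 1.94, with overlap between the times.

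**Figure D5:**
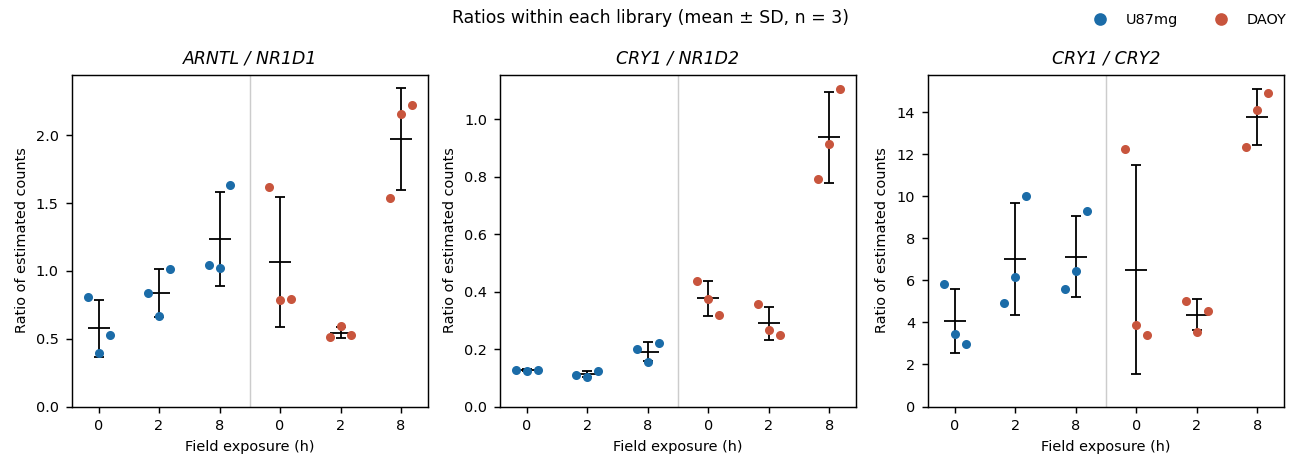
Ratio of estimated counts of ARNTL to NR1D1, CRY1 to NR1D2 and CRY1 to CRY2 in each library by hours of exposure, in U87mg (blue) and DAOY (red); black bars give the mean ± SD (n = 3). In DAOY the CRY1 to NR1D2 ratio was 0.376 ± 0.0604 at 0 h and 0.936 ± 0.159 at 8 h, and in U87mg 0.127 ± 0.00216 and 0.191 ± 0.0329.

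Some of these loci overlap genes on the opposite strand in GENCODE 29 on GRCh38, which matters because the strand setting of the quantification is not given in the sources used here. NR1D1 (chr17:40092787-40100725, minus strand) overlaps THRA, which had log2 changes of 0.24 at 8 h against 2 h in DAOY (edgeR adjusted p = 0.754) and -0.28 at 2 h against 0 h in U87mg (0.579). NR1D2 (chr3:23945260-23980618, plus strand) overlaps NKIRAS1, which changed by 0.23 on the log2 scale at 8 h against 2 h in DAOY (edgeR adjusted p = 0.589). CLOCK (chr4:55427903-55547138, minus strand) overlaps TMEM165 and DBP (chr19:48630030-48637438, minus strand) overlaps SPHK2. PER3 (chr1:7784320-7845177, plus strand) overlaps UTS2. ARNTL (chr11:13276652-13387266, plus strand), CRY2 (chr11:45847118-45883248, plus strand) and PER1 (chr17:8140472-8156506, minus strand) have no listed gene on the other strand, while CRY1 (chr12:106991364-107093829, minus strand) and PER2 (chr2:238244038-238290102, minus strand) overlap only genes with clone-based names. The part of shared reads in the values was not tested.

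Genes whose pattern over the 18 libraries was most like that of ARNTL, after centring log2 CPM on each line's mean, were CRKL (Pearson r = 0.95), CBL (0.94) and WNT2B (0.94), out of 13139 genes. For CRY1 they were PRPF38B (0.95), SWAP70 (0.95) and ZCCHC8 (0.95). The coefficients are descriptions, since libraries of one time share their exposure. PRPF38B rose by 0.79 on the log2 scale in U87mg and by 1.00 in DAOY at 8 h against 0 h (edgeR adjusted p = 0.0229 and 0.0134).

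A further 43 genes of the clock were followed as lists of paralogs, loop receptors, repressors, kinases, turnover factors, coactivators and outputs, of which 39 were tested in U87mg and 41 in DAOY. None had changed at 2 h in either line by edgeR, with 9 of 39 in U87mg and 0 of 41 in DAOY at an unadjusted p below 0.05, beside 8.78% and 2.75% of all genes. At 8 h against 0 h, 2 were higher and 1 was lower in each line, where 1.72% of all genes were called in U87mg and 5.86% in DAOY, so the DAOY count was near the background. BHLHE41 (DEC2), a repressor that competes for E-boxes, had 111, 82.0 and 114 CPM at 0 h and 59.3, 53.4 and 45.9 CPM at 8 h in U87mg, and 175, 87.6 and 97.1 CPM against 53.1, 42.7 and 61.6 CPM in DAOY. The times did not overlap in either line, and BHLHE41 fell by 0.92 on the log2 scale in U87mg (SE 0.15; edgeR adjusted p = 0.0178) and by 1.17 in DAOY (SE 0.26; 0.0296). It also fell by 0.98 at 8 h against 2 h in U87mg (SE 0.15; edgeR adjusted p = 0.0235), the one of these genes that passed between those times in either line.

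SFPQ, a nuclear RNA-binding protein found in PER complexes, rose by 0.71 in U87mg and by 0.79 in DAOY on the log2 scale at 8 h against 0 h (SE 0.15 and 0.19; edgeR adjusted p = 0.0387 and 0.0404). EP300, an acetyltransferase coactivator, rose by 0.64 in U87mg (SE 0.13; edgeR adjusted p = 0.0361) and changed by 0.57 in DAOY (SE 0.15; 0.0505). Its relative CREBBP rose by 0.65 in DAOY (SE 0.17; edgeR adjusted p = 0.0484), with a log2 change of 0.63 in U87mg (SE 0.15; 0.0659). The receptors and NFIL3, which act on the same response elements as NR1D1 or DBP, had no call: RORA had a log2 change of 0.51 in U87mg (edgeR adjusted p = 0.210) and 0.34 in DAOY (0.552), and NFIL3 0.57 (0.218) and 0.50 (0.369).

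At 0 h, 26 of the 42 other clock genes tested differed between the lines by edgeR, 15 higher and 11 lower in DAOY, with adjusted p-values up to 0.0482 and a background of 60.7% of all genes. Among activator paralogs and repressors, ARNTL2 (log2 difference -1.76, SE 0.21) and BHLHE40 (-2.30, SE 0.32) were lower in DAOY. CIART, a repressor, was also lower, with 0 to 5.15 counts per library in DAOY and 65.0 to 242 in U87mg over all times. Of the loop receptor and PAR bZIP lists, RORB (4.14, SE 0.47) was higher and TEF (-1.23, SE 0.27) lower, and HLF was higher from 6 to 25 counts per library in DAOY against 2 to 7 in U87mg.

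Kinases of PER and CRY went both ways: CSNK1E (-1.58, SE 0.25) and CSNK1D (-0.50, SE 0.21) were lower in DAOY on the log2 scale, and CSNK2B (1.00, SE 0.18), CSNK2A1 (0.64, SE 0.14), CSNK1A1 (0.38, SE 0.15) and GSK3B (0.36, SE 0.13) were higher. In the turnover list, the deubiquitinase gene USP7 was lower (-0.43, SE 0.13) and FBXW11 was higher (0.62, SE 0.15). FBXL21, an F-box gene, was listed at 0 counts in all 9 U87mg libraries and at 62 to 222 in DAOY, at least 44.0-fold higher at 0 h with a floor of 3 counts per library in U87mg. PER-complex genes DDX5 (0.80, SE 0.14), SFPQ (0.68, SE 0.18) and NONO (0.50, SE 0.11) and chromatin coactivators KMT2A (1.06, SE 0.15), CREBBP (0.93, SE 0.15) and SIRT1 (0.49, SE 0.18) were higher in DAOY. Of the outputs, NAMPT (-1.66, SE 0.37), TSPO (-1.44, SE 0.37) and CDKN1A (-0.76, SE 0.29) were lower, and USP2 was higher from 7 to 17 counts per library in DAOY against 0 to 3 in U87mg.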

How the data were processed

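RNA from 18 samples was sequenced by the authors from stranded poly-A libraries, and reads were quantified against GENCODE 24 transcripts (GRCh38.p5) with kallisto 0.43.0, followed by sleuth 0.28.1. The deposited table holds estimated counts and TPM per transcript and sample. Its columns of p-values, q-values and fold changes between conditions hold the authors' own comparisons and were not used.

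Samples were grouped by line and exposure from their labels. Estimated counts were summed per gene name and rounded, genes were filtered with filterByExpr and scaled by TMM, and edgeR 4.0.16 (R 4.3.3) quasi-likelihood tests were run on all genes, with 9 libraries per line for the times and all 18 for the difference between lines and for the interaction. Adjusted p-values are Benjamini-Hochberg values over all genes tested. A gene was called at an adjusted p below 0.05, and differentially expressed when its log2 change was also at least 1. TPM was summed per gene for levels. On simulated counts for U87mg at 8 h against 0 h (14107 genes), 100 of 100 genes changed by a log2 of 2 were called. Of those changed by a log2 of 1, 78 of 100 were called. For DAOY (15397 genes) the counts were 95 and 37. The changed genes were drawn only from genes above a minimum mean count. The rates therefore do not cover genes with few counts or changes below a log2 of 1.

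Totals of 8341976 to 15610886 estimated counts set the depth. A floor of 3 counts per library was used for a gene at 0, and it covers counting error only. The 10 genes were named in every result, the other clock genes where they passed the test in a comparison or belonged to the loop receptors, and for likeness the 3 genes of highest correlation. The members and lists were chosen with earlier results of these data known. Alternatives were DESeq2 1.42.0, limma 3.58.1 on log2(TPM + 1) and log2(TPM + 0.1), median-of-ratios scaling, other filters, coding transcripts only (chosen after seeing the data), other sample sets, a replicate block and leaving out each library. ATOH1 and HBB, on the marker lists, were not analysed here. Some of the other clock genes are counted but not reported here by name. Loci are from GENCODE 29 on GRCh38, and promoter windows from RefSeq.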

Additional observations from a re-analysis of the deposited data

How the results depend on the processing

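Of 1490 values of clock genes under an alternative setting, 1350 kept their direction and their side of the threshold, 63 were no longer past it, 16 came past it and 61 changed sign, 0 of those at an adjusted p below 0.05. Most of these values belong to changes that were not called in the main fit, so the total says little about the calls. The CRY1 call in U87mg at 8 h against 0 h held in 4 of 11 other settings and 1 of 6 fits without 1 library. In DAOY at 8 h against 0 h the ARNTL call held in 8 of 11 and 3 of 6, and that of CRY1 in 8 of 11 and 2 of 6. At 8 h against 2 h these were 8 of 11 and 1 of 6 for ARNTL, and 9 of 11 and 0 of 6 for CRY1. At 2 h, 0 clock genes were called in either line under every setting of the gene-level tests. DESeq2 on transcripts did call 1 in U87mg at 2 h, beside 0.714% of all transcripts. In the 8 h comparisons the count moved with the tool and the samples, and the cause was not tested. Without the criterion on size, 1 clock gene was called in U87mg at 8 h against 0 h, 2 in DAOY at 8 h against 0 h, 2 at 8 h against 2 h and 7 between the lines, and the other clock genes numbered 3, 1, 3 and 26 in U87mg at 8 h against 0 h, U87mg at 8 h against 2 h, DAOY at 8 h against 0 h and between the lines.

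By adjusted p alone, U87mg at 8 h against 0 h had 2 clock genes with DESeq2 and 2 without a filter on low counts. It had 0 with limma at either pseudocount, with at least 10 counts in every sample, with coding transcripts only, with all 18 samples and with only the 6 samples compared. U87mg at 8 h against 2 h had 1 with DESeq2 and 1 without a filter. DAOY at 8 h against 0 h had 1 with limma at either pseudocount, 1 with coding transcripts and 0 with only the 6 samples, and with both criteria limma called 1. DAOY at 8 h against 2 h had 4 with DESeq2, without a filter or with all 18 samples, 1 with limma or coding transcripts, and 0 with both criteria by limma on log2(TPM + 1). The lines differed in 4 with limma on log2(TPM + 0.1) and in 4 with only the 6 samples. Without a filter, 1 gene passed the 2 h interaction. The number of all genes called by adjusted p alone also moved over these settings. It ran from 0 to 584 in U87mg at 8 h against 0 h and from 3 to 725 at 8 h against 2 h. In DAOY it ran from 207 to 1809 at 8 h against 0 h and from 52 to 1073 at 8 h against 2 h. Between the lines it ran from 6486 to about 10840, and for the 2 h interaction from 0 to 48. The clock gene counts were not set against the share in each setting. DESeq2 on transcripts called 1 in U87mg at 2 h against 0 h, beside 0.714% of all transcripts. It called 2 there at 8 h against 0 h and 1 at 8 h against 2 h, beside 1.59% and 2.11%. In DAOY it called 2 and 3 at 8 h against 0 h and 2 h, beside 4.59% and 2.98%. In CPM in place of TPM, 5 of 10 genes kept their rank in unexposed U87mg.

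Replicate numbers were not used as pairs in the main fit, since the criterion was a correlation over 0.1 in every same-numbered pair. That criterion is strict and cannot exclude pairing. Same-numbered libraries correlated at -0.17 to 0.26 in U87mg (median 0.15), with 5 of 9 pairs over 0.1. In DAOY they correlated at -0.20 to 0.44 (median 0.062), with 2 of 9 over 0.1. Differently numbered pairs had 3 of 18 over 0.1 in U87mg (median -0.036) and 7 of 18 in DAOY (median -0.16). In U87mg 5 of 9 libraries, and in DAOY 3 of 9, correlated best with one of their own number. With the replicate block, U87mg at 8 h against 0 h still had 1 clock gene by adjusted p, with ARNTL (0.0442) called and CRY1 (0.0710) not. DAOY had 1 at 8 h against 0 h by adjusted p, and 0 at 8 h against 2 h by adjusted p alone or with both criteria.

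Leaving out 1 library at a time gave 0 to 2 clock genes by adjusted p in U87mg at 8 h against 0 h, 0 to 3 in DAOY at 8 h against 0 h (0 to 2 with both criteria), 0 to 1 in DAOY at 8 h against 2 h, and 4 to 6 between the lines (2 to 3 with both criteria). The number of all genes called moved too, to 0 to 1215 in U87mg at 2 h against 0 h, 0 to 753 at 8 h against 0 h and 0 to 47 at 8 h against 2 h, and to 31 to 855 and 0 to 70 in DAOY at 8 h against 0 h and 2 h. Between the lines it ran from 9197 to 9947.

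The log2 values that changed sign with limma, with a pseudocount of 1 and then 0.1, were, for the difference of the lines in the 8 h change ARNTL (-0.065 and -0.070), PER3 (-0.00011), for DAOY at 2 h against 0 h ARNTL (0.060 and 0.061), CRY1 (0.073 and 0.075), PER2 (0.12 and 0.16), for DAOY at 8 h against 2 h CLOCK (0.097 and 0.10), PER2 (-0.018 and -0.021), PER3 (-0.013 and -0.019). They were also, for U87mg at 8 h against 0 h CLOCK (-0.00049 and -0.00047), CRY2 (0.096 and 0.12), for the difference of the lines in the 2 h change CRY1 (0.054 and 0.054), NR1D2 (0.084 and 0.087), for U87mg at 2 h against 0 h PER1 (0.044 and 0.040). For PER3 the sign changed with the pseudocount of 1 alone in the 8 h interaction. The change of PER2 at 2 h in DAOY, near 0, was also above it with DESeq2 (0.0032), median-of-ratios scaling (0.0043) and only the 6 samples (0.0017). Leaving out 1 library at a time turned the sign of further log2 values, whose ranges were, for the difference of the lines in the 8 h change ARNTL (-0.067 to 0.27), DBP (-0.98 to 0.40), NR1D1 (-0.096 to 0.35), PER1 (-0.78 to 0.066), PER2 (-0.29 to 0.083), PER3 (-0.16 to 0.20), for DAOY against U87mg at 0 h ARNTL (-0.12 to 0.21), DBP (-0.20 to 1.18), PER1 (-0.65 to 0.22), for U87mg at 2 h against 0 h ARNTL (-0.064 to 0.23). The others were, for DAOY at 2 h against 0 h CLOCK (-0.24 to 0.13), CRY1 (-0.25 to 0.087), CRY2 (-0.16 to 0.31), PER2 (-0.16 to 0.15), for the difference of the lines in the 2 h change DBP (-0.72 to 0.65), NR1D2 (-0.23 to 0.11), PER3 (-0.061 to 0.15), for DAOY at 8 h against 0 h NR1D1 (-0.44 to 0.018), PER1 (-0.66 to 0.21), for U87mg at 8 h against 2 h NR1D1 (-0.054 to 0.22).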
